A study of Canis lupus familiaris with 22 samples.

Results

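The blood of healthy dogs was described from the 8 control arrays alone, out of 22 arrays in the series. Each array compared venous whole blood RNA of 1 untreated healthy dog, labelled with Cy5, with a common reference labelled with Cy3, which pooled whole blood RNA of 13 healthy dogs. The study's methods describe the control dogs as adult blood donors of both sexes and several breeds. They call the material peripheral blood nuclear cells, whereas the labels say whole blood collected into RNA-stabilising tubes. By the study's methods the dogs of the pool were not among those hybridised on their own, and no dog had its dyes swapped. Dogs 1 to 4 lay on slide 1 and dogs 5 to 8 on slide 2. The members were the probes flagged well above background in Cy5 on all 8 arrays, which was 34394 of 43603 probes (78.9%). Of these, 18798 carried a gene symbol, and they represented 11992 of the 13460 symbols on the array. Each named gene was represented by its brightest member probe.

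Whole blood RNA is a mixture. Most of its nucleated cells are neutrophils, with lymphocytes, monocytes, eosinophils and basophils beside them, and the young red cells known as reticulocytes and the platelets still hold RNA although they have no nucleus. A blood profile therefore contains globin and heme synthesis transcripts next to transcripts of granulocytes and lymphocytes, and it can also carry the type I interferon response, in which cells switch on antiviral genes such as *MX1* and *ISG15*. In such bulk samples, fewer cells of a type and less RNA per cell cannot be told apart.

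Cy5 was well above background for 83.7 to 92.2% of spots per dog and Cy3 for 80.0 to 88.1%, and no spot was saturated. The arrays of any pair of dogs correlated between -0.11 and 0.45 in their log ratios over all spots. Of the cell type lists, all 34 erythroid symbols, 25 of 26 neutrophil, all 19 monocyte, 24 of 25 T cell, 11 of 12 B cell, 15 of 17 cytotoxic, 9 of 11 eosinophil and basophil and 25 of 26 platelet symbols on the array were above background in every dog, as were 89.1% of all symbols. So were 18 of 24 genes chosen as markers of other tissues and 95 of 178 olfactory receptor genes. Their median log2 Cy5 signals were 8.00 and 7.09, against 8.54 over all named genes, so being above background on this array was a wide criterion. The T cell receptor chains had no symbol on the array.

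The brightest probes of canine blood held sequences of abundant blood transcripts and sequences that many probes of the array share. The signals below are log2 Cy5 processed signals, mean ± SD over 8 dogs. They give the order of probes by brightness, which depends on how well each probe hybridises, and not an order of transcript copies. Over all members the mean signal ranged from 5.43 to 19.61 with a median of 8.08. The brightest member carried no symbol (an expressed sequence tag, DN438940, 19.61 ± 0.26), and the next, an unnamed transcript (TC59948, 19.30 ± 0.22), held a word shared by 22 probes. The hemoglobin subunit beta-like transcript LOC609402 had 2 of the brightest probes, at 19.24 ± 0.39 and 18.91 ± 0.40, with 7 other probes between them. The brighter one lies at chr21:28182446-28182505 on the minus strand (build canFam3.1, per the file headers), and another bright probe, at chr21:28204395-28204454, belonged to an uncharacterized transcript of the same chromosome (18.82 ± 0.42). Both hemoglobin probes are annotated to more than 1 transcript in the files, so signal of near-identical hemoglobin copies cannot be told apart. No hemoglobin chain had a gene symbol in the files, and they appear under locus numbers.

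Among named genes the 3 brightest were *INPP5K*, an inositol phosphatase (19.01 ± 0.23), *RPL22L1*, a paralog of a ribosomal protein (18.92 ± 0.20), and *FTH1*, the heavy chain of the iron store ferritin (18.90 ± 0.18). The sequences below show what sets the groups of bright probes apart. Each line is a 30-base stretch of a 60-base probe, written 5′ to 3′ as on the array, and capitals mark a 12-base word that at least 10 of the 43603 probes contain. The first 5 lines hold a stretch rich in A and T, the next 2 are GT repeats, 1 is a CT repeat, and the last 2, from ferritin and the hemoglobin beta-like transcript, hold no such word.
RPL22L1: cctctctgcatttctcaTGAATAAATAAAa
IVD: gtatctctcaTGAATAAATAAAtacaatct
LRRC28: tgtctctcatggataAATAAATAAAATctt
SH3YL1: tgtctctcatgaataAATAAATAAAATctt
RHAG: gtctcatgaataAATAAATAAAATcttaaa
ANKRD23: ctctgggttTGTGTGTGTGTGtgtgtgtgt
SEPW1: ctttgcctcTGTGTGTGTGTGtgtttgtgt
ECHS1: acttgagcgCTCTCTCTCTCTctctgtcaa
FTH1: attaagaaaccagaccgtgacgattgggag
LOC609402: tagtgatggcctgaaaaacctggacaacct

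Such shared words were uncommon on the array and frequent among its brightest probes. The most shared 12-base word of a probe occurred in a median of 3 probes, and in 10 at the 99th percentile. A word held by at least 10 probes was found in 459 members (1.33%), but in 16 of the 25 brightest (64.0%), 46 of the 100 brightest (46.0%) and 90 of the 1000 brightest (9%). The 4 commonest 8-base motifs of the 100 brightest probes, taken 1 after another, were ATAAATAA, CTCTCTCT, CCCCTGCC and CCTCTGCC. At least 1 of them stood in 53 of those 100 probes and in 1.17% of all members. The motifs and their orientation were picked from the brightest probes, so the signals of their members are a description. Members holding CTCTCTCT as printed had a median signal of 15.17 (117 probes) and those holding its reverse complement AGAGAGAG 8.31 (90 probes). The same medians were 10.34 and 9.15 for ATAAATAA, 12.13 and 8.30 for CCCCTGCC, and 11.63 and 7.69 for CCTCTGCC. Counts for each motif on both strands were 241 members for ATAAATAA (0.701%), 207 for CTCTCTCT (0.602%), 101 for CCCCTGCC (0.294%) and 138 for CCTCTGCC (0.401%), and a probe could hold several. As background, the dog genome carries many copies of a short interspersed element that ends in a CT-rich stretch and an A-rich tail and is often transcribed within genes. The probes were not aligned to a repeat library here, and the part of such elements in these signals was not tested.

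**Figure D1:**
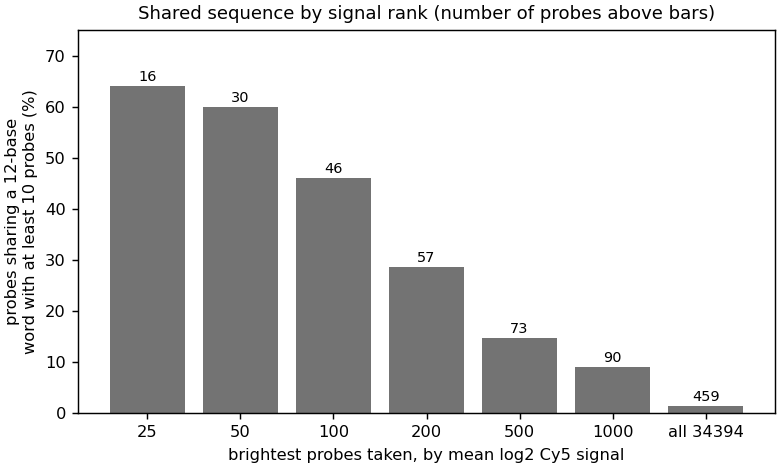
Share of probes that contain a 12-base word held by at least 10 of the array's probes (y axis, percent), for the 25 to 1000 brightest members and for all 34394 (x axis), with the number of such probes above each bar. The share fell from 64.0% of the 25 brightest to 1.33% of all members.

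Of the 25 brightest named genes, 11 were represented by a probe with a shared word: *RPL22L1*, *IVD*, *LRRC28*, *SH3YL1*, *PTK7*, *RHAG*, *FBF1*, *ANKRD23*, *SEPW1*, *ECHS1* and *NUFIP2*. For 10 of these, another member probe of the same gene had no such word, and its signal lay 2.92 to 11.41 lower on the log2 scale (median 8.91). *IVD*, an enzyme of leucine breakdown, gave 18.90 with the probe shown and 7.49 and 7.40 with the other 2 probes. *RHAG*, the Rh-associated glycoprotein of the red cell membrane, gave 18.73 and 18.49 with 2 probes holding the word and 7.64 with the third. The probes of *FTH1* were closer to each other, with 6 of 7 between 18.35 and 18.90 and the seventh at 10.39. For the 10 genes without a shared word that had another probe, the gap ranged from 0.06 to 9.50 (median 2.73). *INPP5K* belonged to these, since its brightest probe held CTCTCTCT but no 12-base word found in 10 probes, and its other probes gave 12.94, 7.93 and 6.498.

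The other 14 brightest named genes were *INPP5K*, *FTH1*, *C6H16orf5* (18.75 ± 0.41), *AMELX* (18.61 ± 0.43), *TPT1*, *AMN*, *IRF9*, *SERPINA1*, *ACTB*, *CAPN15*, *RPS4X*, *PCSK1N*, *EPN2* and *RPS14*. Several are known as abundant in blood cells. *TPT1*, the translationally controlled tumor protein, had 18.59 ± 0.37, *SERPINA1*, alpha-1 antitrypsin, 18.27 ± 0.31, *ACTB*, the cytoskeletal beta-actin, 18.22 ± 0.24, and the ribosomal proteins *RPS4X* and *RPS14* 18.05 ± 0.30 and 17.92 ± 0.20. *AMELX*, an enamel protein, and *C6H16orf5*, *AMN* and *CAPN15* held the motif CCCCTGCC in their probes. The last gene of the 25, *RPS14*, stood at 17.92 and the next, *RHOG*, at 17.87, a difference smaller than the SD of either. With the probes that share a word left out, an alternative added after the values were seen, 14 of the 25 genes stayed in the list and *SEC24C*, *ACTG1*, *B2M*, *COX3*, *GPX1*, *HLA-DRB1*, *COX2*, *SYT9*, *TSKU*, *OAZ1* and *RPL8* joined it. These include the invariant chain of MHC class I (*B2M*, 17.82 ± 0.28), a chain of MHC class II (*HLA-DRB1*, 17.72 ± 0.26), 2 mitochondrially encoded subunits of the respiratory chain and *GPX1*, a glutathione peroxidase of red cells (17.79 ± 0.74).

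**Figure D2:**
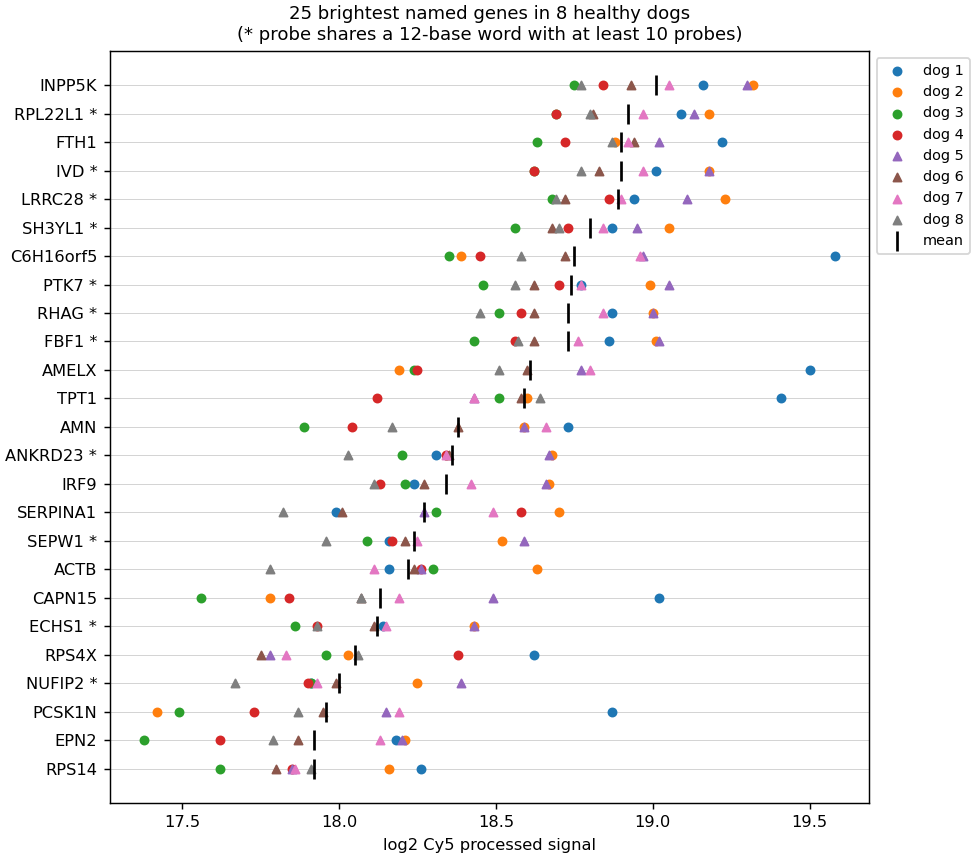
Log2 Cy5 processed signal (x axis) of the 25 brightest named genes (y axis) in each of 8 healthy dogs, circles for dogs 1 to 4 on slide 1 and triangles for dogs 5 to 8 on slide 2, with the mean as a black bar. Asterisks mark the 11 genes whose probe shares a 12-base word with at least 10 probes, and dog 1 was the highest dog for, among others, *C6H16orf5*, *AMELX*, *TPT1*, *CAPN15* and *PCSK1N*. Signals were not scaled between arrays, and the array of dog 1 had the highest median signal.

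The lists of known genes differed in their signals. The 48 ribosomal protein genes had the highest median of the lists, 16.14, led by *RPS4X*. The neutrophil list had a median of 13.53, and *S100A8*, a subunit of the alarmin calprotectin, led it with 17.18 ± 0.30. Genes of neutrophil granules, which are made in the bone marrow, had a median of 8.85, led by lysozyme, *LYZ*, with 16.50 ± 0.37. Medians were 13.16 for MHC class I, 12.35 for platelets, led by *TREML1* with 15.13 ± 0.45, and 12.03 for MHC class II. They were 10.98 for the erythroid list, 10.20 for T cells, led by the kinase *LCK* with 13.62 ± 0.34, 9.41 for cytotoxic cells, led by the protease *CTSW* with 12.17 ± 0.45, 9.16 for monocytes, led by *CD68* with 15.46 ± 0.57, and 8.25 for B cells. The brightest erythroid gene by the rule was *RHAG*, whose probe is described above. The next was *ALAS2*, the first enzyme of heme synthesis in red cells, with 16.47 ± 1.02. *IL4* led the eosinophil and basophil list with 17.09 ± 0.23, while the dimmest of its 3 probes had 6.34. *IRF9* led the interferon list with 18.34 ± 0.22, by a probe that holds CTCTCTCT, and its second probe had 12.16. The insulin gene *INS* was the brightest of the other-tissue list with 12.80 ± 0.78, and albumin, *ALB*, was above background at 7.36 ± 0.71. The least variable gene of that list was the endothelial receptor *TEK* (SD of the ratio 0.16).

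The spread between dogs was small for most genes and large for few. It was measured as the SD over the 8 dogs of the log2 ratio of Cy5 to Cy3. The median SD of the named genes was 0.28, the middle 50% lay between 0.22 and 0.38, and 99% lay below 0.88. An SD above 0.5 was found for 1326 genes (11.1%), above 1 for 71 (0.592%) and above 1.5 for 7. The same reference hybridised on all 8 arrays gave a median SD of 0.18 over the member probes after scaling each array to its 75th percentile. Repeated spots of 1 probe on the same array had a median SD of 0.09 (47 probes), and the error that the scanner software attached to a ratio had a median of 0.22. The 10 spike-in probes had a median SD of 0.52 over the 8 arrays, and of 0.14 after each array was centred on its spike-in mean. With the members split by signal into 10 equal sets, the median SD ranged from 0.26 to 0.32. The SD of the ratio exceeded the software error in 8200 of the named genes (68.4%). With normexp background correction and loess normalization the median SD of the named genes was 0.167.

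**Figure D3:**
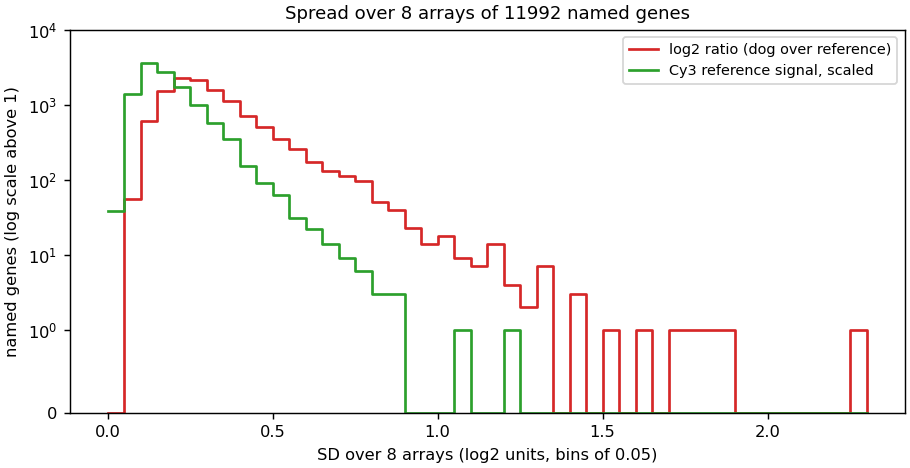
Number of named genes (y axis, log scale above 1) by SD over 8 arrays (x axis, log2 units) of the log2 ratio in red and of the scaled Cy3 reference signal in green. The ratio had the longer tail, to 2.27 for *EMR2*, and its median was 0.28.

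The 25 named genes with the largest SD included *EMR2*, *TMCC3*, *ATP6V1E2*, *CEACAM23*, *SYTL4*, *MX1*, *PSD3*, *OAS2*, *PKIG*, *CMPK2*, *ISCA1*, *DAGLB*, *MINPP1*, *ACTA2*, *RHCE*, *RAP1GAP2*, *ISG15*, *STRADB*, *MAGEE2*, *MARCH3*, *ZNF142*, *GCH1*, *DPYSL3* and *CCL5*. The last of them, *CCL5*, had an SD of 1.188 and the next, *CD1A6*, of 1.187. For 8 of the 25 a single dog carried much of the spread. Without dog 7 the SD was 0.56 for *CMPK2* (1.41 over all dogs), 0.67 for *ISG15* (1.29), 0.73 for *OAS2* (1.44) and 0.82 for *MX1* (1.62). Without dog 2 it was 0.56 for *ZNF142* (1.21), without dog 4 1.11 for *TMCC3* (1.88), without dog 6 1.00 for *PSD3* (1.53) and without dog 8 0.77 for *CCL5*. With normexp and loess the SD was lower by over 1.5 times for 8 of the 25, *TMCC3* (0.56), *ZNF142* (0.48), *RAP1GAP2* (0.59), *PSD3* (0.74), *MAGEE2* (0.74), *SYTL4* (1.12), *CEACAM23* (1.18) and *ATP6V1E2* (1.20). With the MAD it was lower by over 1.5 times for 10, from *DAGLB* (0.17) to *CMPK2* (0.90). The reference signal of these 25 probes was stable, with a median SD of 0.14, and only for *TMCC3* (0.80) and *SYTL4* (0.40) did it exceed 0.3. For *PER2*, a clock gene just outside the 25 with an SD of 1.17, the scaled reference signal had an SD of 1.05 and the scaled Cy5 signal one of 0.27. In 10 of the 25 genes other member probes were present, 14 in all. Of these, 10 had their highest value in the same dog as the probe that was ranked (71.4%), against 35.1% of 6806 further probes over all named genes. Their median SD was 0.92.

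**Figure D4:**
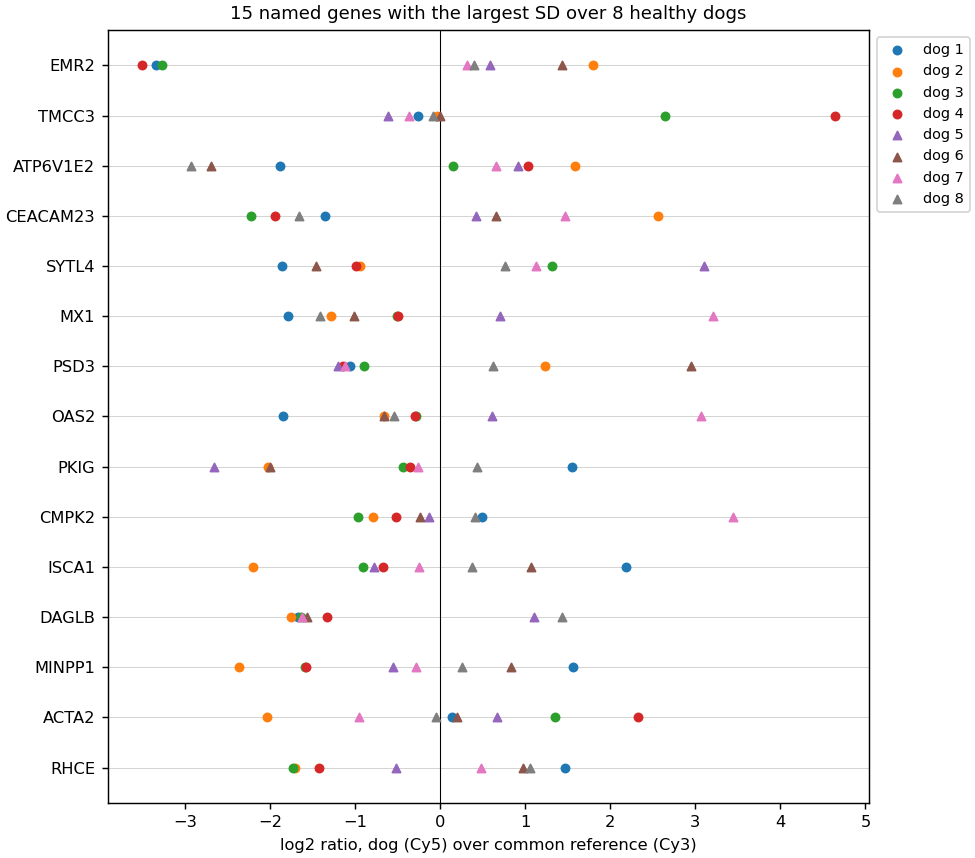
Log2 ratio of dog over common reference (x axis) for the 15 named genes with the largest SD (y axis) in each of 8 healthy dogs, circles for dogs on slide 1 and triangles for dogs on slide 2. *EMR2* fell into a low set of 3 dogs and a high set of 5, and dog 7 lay apart from the rest for *MX1*, *OAS2* and *CMPK2*.

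*EMR2*, which encodes an adhesion receptor of the EGF-TM7 family found on myeloid cells, varied most of the named genes (SD 2.27). Its log2 ratio was -3.50 in the lowest dog, 0.36 at the median and 1.79 in the highest. Dogs 1, 3 and 4 lay between -3.50 and -3.27 and the other 5 dogs between 0.31 and 1.79, so that an empty interval of 3.58 separated the sets. Its single probe lies at chr20:47929361-47929420. Across all named genes the largest interval between neighboring dogs, with at least 2 dogs on each side, had a median of 0.21 and exceeded 1.5 in 12 genes, a measure chosen after the values were seen. *ATP6V1E2*, a subunit of the vacuolar proton pump, was low in dogs 1, 6 and 8 (interval 2.03). *DAGLB*, a diacylglycerol lipase, was high in dogs 5 and 8 (interval 2.44), and its 2 further probes were also highest in dog 8. *CEACAM23*, a canine member of the carcinoembryonic antigen family, was low in dogs 1, 3, 4 and 8 (interval 1.78). *TMCC3* and *RAP1GAP2* were high in dogs 3 and 4. The sets of dogs thus differed from gene to gene.

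One such gene is on the Y chromosome. *KDM5D*, a histone demethylase and the only symbol of the Y-linked list on the array, had an SD of 1.03 and a reference SD of 0.07. It lay between 0.80 and 1.11 in dogs 1, 4, 5, 7 and 8 and between -1.09 and -0.91 in dogs 2, 3 and 6. The probe with the largest SD of all members, an expressed sequence tag without a symbol (DT539304, SD 3.02), was low in the same dogs 2, 3 and 6, between -4.42 and -4.12, and lay between 0.52 and 2.05 in the other dogs. The files place it on chromosome 26. The labels give no sex for any dog, and the dogs were not grouped by it.

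The share of all named genes whose log2 ratio was highest in a given dog was 23.1% for dog 1, 14.3% for dog 2, 14.2% for dog 3, 5.86% for dog 4, 19.8% for dog 5, 7.13% for dog 6, 8.06% for dog 7 and 7.54% for dog 8. The counts of the lists below are given against these shares.

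The interferon-stimulated genes set dog 7 apart. *MX1*, an antiviral GTPase, had a log2 ratio of -1.79 in the lowest dog, -0.76 at the median and 3.20 in dog 7. *OAS2*, a sensor of double-stranded RNA, had -1.85, -0.42 and 3.06, with the highest value again in dog 7. *CMPK2*, a mitochondrial nucleotide kinase, had -0.97, -0.18 and 3.44, and *ISG15*, a ubiquitin-like modifier, -1.72, -0.09 and 2.89. In each of these genes dog 7 was far above the second highest dog. Of the 36 interferon-stimulated genes above background, 31 were highest in dog 7, while dog 7 was the highest of 8.06% of all named genes. The 5 exceptions were *CXCL10*, *GBP1*, *IFI6*, *IRF9* and *TRIM25*, and the second, dimmer probe of *IRF9* was highest in dog 7. The list median was 1.1 in dog 7 and between -0.40 and 0.01 in the other dogs. Its median SD was 0.54, against 0.28 over all named genes, and 11 of its genes were among the 100 most variable, including *DDX58*, *OAS1*, *HERC5*, *HERC6*, *RSAD2*, *PARP14* and *IFI44L*. The least variable was *CXCL10*, a chemokine, with 0.23. *ALOX15*, a lipoxygenase of eosinophils, was also highest in dog 7 (2.65, with a median of 0.15 over dogs), whereas the whole eosinophil and basophil list had its highest median in dog 2 (0.61). Other lists also stood at an end in dog 7. It had the highest median of the neutrophil granule list (0.31) and the lowest of the T cell (-0.35) and cytotoxic lists (-0.47).

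The erythroid genes formed the widest group. Their median SD was 0.74, 8 of 34 had an SD above 1, and 25 of 34 were highest in dog 1, which was the highest of 23.1% of all named genes. *RHCE*, a Rh blood group protein, had a log2 ratio of -1.73 in the lowest dog, -0.02 at the median and 1.47 in the highest, and *ALAS2* had -2.07, -0.35 and 1.76. In both genes dog 1 was highest, and dogs 2, 3 and 4, on the same slide, had negative ratios. *AHSP*, the chaperone of free alpha globin, *SELENBP1*, *BPGM*, the enzyme that makes bisphosphoglycerate, *FECH*, the last enzyme of heme synthesis, and *HEMGN* had SDs of 1.16, 1.16, 1.12, 1.07 and 1.02, all with the highest value in dog 1. The list median was 0.88 in dog 1, 0.60 in dog 6, 0.20 in dog 8, 0.12 in dog 7, -0.06 in dog 5 and between -0.53 and -0.43 in dogs 2, 3 and 4. The lowest value was in dog 2 for 13 genes and in dog 3 for another 13, and these dogs were the lowest of 15.7% and 16.1% of all named genes. *ANK1*, the membrane anchor ankyrin, varied least of the list (0.14), by a probe with a signal of 6.20. The hemoglobin beta-like probe ranked by its signal had a range of 2.01 in its log2 ratio over the dogs. Several of the 25 most variable genes outside the list, *PKIG*, *ISCA1*, *MINPP1*, *STRADB* and *GCH1*, were also highest in dog 1. Dog 1 was the highest and dog 2 the lowest of 48 each of the 100 most variable genes.

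The cytotoxic and T cell lists were led by dog 8 and the platelet list by dog 3. Of 15 cytotoxic genes 10 were highest in dog 8, which was the highest of 7.54% of all named genes. *GZMA*, granzyme A, had a log2 ratio of -1.57 in the lowest dog, -0.59 at the median and 2.00 in dog 8. *CCL5*, a chemokine of T and natural killer cells, had -2.15, -1.57 and 1.36, and *KLRD1*, a natural killer receptor chain, -1.50, -1.05 and 1.43. The list median was 1.04 in dog 8 and at most 0.32 in the other dogs. Dog 8 also had the highest median of the B cell (0.31) and MHC class II lists (0.25). It had the lowest median of the neutrophil (-0.37) and neutrophil granule lists (-0.41). The T cell list was also highest in dog 8 for 8 of 24 genes (median SD 0.37), with *ZAP70*, a kinase of the T cell receptor, the most variable (0.83) and *FOXP3*, the factor of regulatory T cells, the least (0.18). Of 25 platelet genes 10 were highest in dog 3, which was the highest of 14.2% of all named genes, while 10 were lowest in dog 1 and 9 in dog 7, which were the lowest of 16.2% and 7.8% of all named genes. The platelet median was 0.57 in dog 3 and -0.65 in dog 1. *MMRN1*, multimerin, was the most variable of them (1.02) and *VWF*, von Willebrand factor, the least (0.14).

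**Figure D5:**
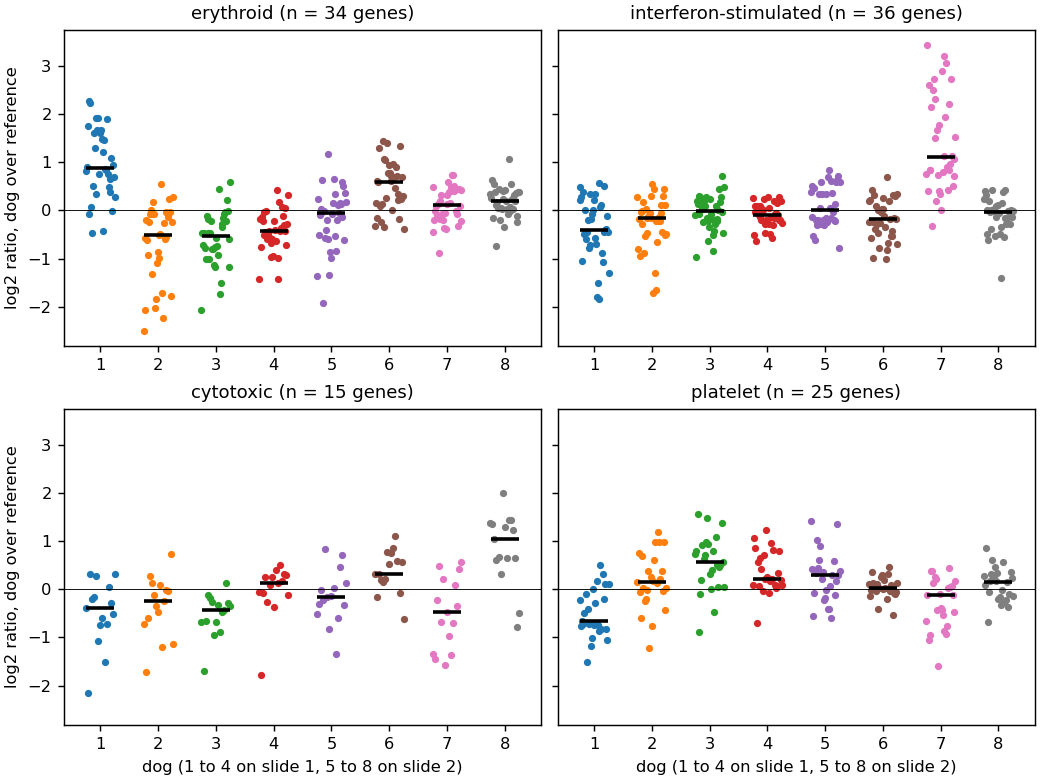
Log2 ratio of dog over common reference (y axis) for each gene of 4 lists in each of 8 healthy dogs (x axis), with the median of the list as a black bar. The erythroid median was highest in dog 1 (0.88), the interferon-stimulated median in dog 7 (1.1), the cytotoxic median in dog 8 (1.04) and the platelet median in dog 3 (0.57).

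Neutrophil genes had a median SD of 0.36, and 16 of 25 were above the median of all named genes. *TLR2*, a receptor for bacterial lipopeptides, had the largest SD (0.62) and *ITGB2*, the shared beta chain of the leukocyte integrins, the smallest (0.13). Median SDs were 0.44 for neutrophil granule genes, led by the collagenase *MMP8* (0.73), with the antiprotease *SLPI* the lowest (0.24). Another, dimmer probe of the granule gene *BPI* had an SD of 1.47, with -2.13 in dog 1 and 2.62 in dog 5. Median SDs were 0.33 for monocytes, with the fractalkine receptor *CX3CR1* the highest (0.90), and 0.51 for B cells, with *CD22* the lowest (0.20). The plasma cell list (6 genes, median 0.34) ranged from *TXNDC5*, a protein folding enzyme (0.79), to *XBP1*, a factor of the secretory program (0.20). Its joining chain gene *IGJ* was the brightest (13.88 ± 0.57) and reached 1.79 in dog 3.

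The antigen presentation and housekeeping lists had median SDs above that of all named genes (0.28) and below the upper quartile (0.38). Median SDs were 0.37 for MHC class II, where *DLA-DQB1* had 0.52 and *DLA-DMB* 0.21, and 0.33 for MHC class I, where the nonclassical *DLA-79* had 0.56 and the chaperone *CALR* 0.14. A probe named only by its accession, M30130, from the variable region of a DLA class II beta chain, had an SD of 1.76. Ribosomal proteins had a median SD of 0.31, from *RPL7* (0.65) to *FAU* (0.10), and 32 of 48 were lowest in dog 5, which was the lowest of 21% of all named genes. Of the 48, 21 were highest in dog 8 and 15 in dog 1, the highest dogs of 7.54% and 23.1% of all named genes. Of 18 genes in common use as reference genes for normalization, *PGK1* (0.20) and *SDHA* (0.21) varied least, *GAPDH* had 0.32, *ACTB* 0.40 and *B2M*, which also stood in the MHC class I list, 0.51.

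The lists of cell state showed moderate spread. Median SDs were 0.33 for immediate early genes, from *GADD45A* (0.95) to *KLF4* (0.23), with *JUND* the brightest (14.20 ± 0.33), and 0.28 for inflammatory cytokines, from *IL8* (0.57) to *LIF* (0.14), with *NFKBIA* the brightest (12.54 ± 0.33). Glucocorticoid targets had 0.33, from the metallothionein *MT2A* (0.79) to *KLF9* (0.11), with *TXNIP* the brightest (15.34 ± 0.45). Heat shock genes had 0.42, from *DNAJB1* (0.80) to *HSP90AB1* (0.16), with *HSP90AA1* the brightest (14.29 ± 0.61). Of 26 cell cycle genes 12 were highest in dog 1 and 11 in dog 3, the highest dogs of 23.1% and 14.2% of all named genes. The median SD of the cell cycle genes was 0.38. *AURKB*, a mitotic kinase, was the brightest and most variable of them (13.59 ± 0.72, SD of the ratio 0.78) and *MCM7* the least (0.19). Beta-defensins and olfactory receptors had low median signals, 7.21 and 7.09 against 8.54 over all named genes. Their median SDs lay on either side of that of all named genes (0.28). Beta-defensins had a median SD of 0.23, from *DEFB113* (0.44) to *DEFB129* (0.14), with *DEFB124* the brightest (14.97 ± 0.28). Olfactory receptors had 0.31, from *OR6N1* (1.00) to *OR13C3* (0.13), with *OR16G03* the brightest (16.40 ± 0.25). The eosinophil and basophil list, of blood cells, had a median signal of 9.38 and a median SD of 0.38, with *GATA2* the least variable (0.15).

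The 15 named genes with the smallest SD were *PDHB*, *CLK3*, *SYS1*, *PSME3*, *FZD6*, *SPOP*, *CPQ*, *RPUSD4*, *PPP2R3A*, *SEPT9*, *FN3KRP*, *XKR7*, *HDAC3*, *PPCDC* and *ENTPD4*. *PDHB*, a subunit of pyruvate dehydrogenase, had an SD of 0.055 and a range of 0.17 over the 8 dogs, and *CLK3*, a kinase of splicing factors, 0.057 and 0.18. The last of them, *ENTPD4*, had 0.081 and the next, *BACH1*, 0.083. All 15 SDs were below the software error of the same ratios, whose median was 0.21 for these genes, and below the SD of their own reference signal, so the order among them is within the technical spread. Their signals ran from 6.85 for *XKR7* to 13.86 for *FN3KRP*, an enzyme that repairs glycated proteins. The second probes did not show the same steadiness. In the 6 genes with other member probes, 8 in all, their SDs ran from 0.11 to 0.78, and *FN3KRP* held both 0.08 and 0.78. None of the 15 was among the 18 reference genes.

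The slides were compared because 4 dogs lay on each. In limma's moderated test with Benjamini-Hochberg adjustment, 0 of 34394 member probes differed between slide 2 and slide 1 at an adjusted p under 0.05 (0%). The smallest adjusted p was 0.739, and 1910 probes had an unadjusted p under 0.05. The latter count ranged from 990 without dog 3 to 7044 without dog 1 and was 3218 without dog 6. A single probe was called without dog 1, dog 2 or dog 6, and none without each of the other dogs. The probe called without dog 2 was that of *EMR2*, the gene chosen for the largest spread, whose 3 low dogs are then the whole of slide 1, so this call follows from the choice of gene and dog. The slide and the dogs on it cannot be told apart.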

How the data were processed

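Total RNA from venous whole blood was hybridised to Agilent 2-color canine 4x44K arrays, per the labels, with the dog in Cy5 and the reference pool in Cy3. The deposited scanner files hold the processed and mean Cy5 and Cy3 intensity of each spot and the log10 ratio of Cy5 to Cy3, which the authors obtained with Agilent Feature Extraction (10.7.3.1 per the labels, 10.10.1.1 per the file headers). The software subtracted background and normalized the dyes. Only the 8 control arrays were used. The deposited series matrix, log10 ratios with each array's median near 0, served as an alternative. Each of its columns correlated best with the scanner file of its own dog (r 0.711 to 0.844).

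Control features and 65 spots that the software had marked as outliers were dropped, the spots of a probe were averaged and ratios were converted to log2. A gene was named if its GeneName was a symbol, and was represented by its brightest member probe. The text names the 25 brightest genes, the 25 with the largest and the 15 with the smallest SD, and from each list the brightest, most and least variable gene. Further genes were named after their values were seen. The members and gene lists were chosen with earlier results of these data known. The slides were compared with limma 3.58.1 (R 4.3.3), also on simulated data. P-values set the difference between slides against the spread between dogs on the same slide, and the number of arrays limits the precision. Alternatives changed the background correction and normalization (normexp with an offset of 50, then loess or quantile), channel, source, filter, measure of spread, slide centering and dogs. Probe sequences and positions (canFam3.1) are those of the files. Genes without a symbol were not renamed. A few genes that the rule names are not reported here.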

Additional observations from a re-analysis of the deposited data

Results flagged for a closer look

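A single dog stood apart from the other 7 in 6 of the named results, by a gap that was large against the whole range (Dixon's 95% limit for 8 values). These were 3 of the 25 genes with the largest SD, 1 of the 15 with the smallest and 2 of the 25 brightest. Over all 11987 named genes with 8 values, 6.37% met this limit, and chance alone gives about 1 in 20. In dog 7 the log2 ratio of *CMPK2* was 3.44 (next 0.49, lowest -0.97) and that of *ISG15* was 2.89 (next 0.34, lowest -1.72). In dog 2 the ratio of *ZNF142*, a zinc finger protein, was -3.10 (next -1.15, highest 0.36) and that of *RPUSD4*, one of the least variable genes, was 0.30 (next 0.19, lowest 0.09). In dog 1 the log2 Cy5 signal was 19.50 for *AMELX* (next 18.80, lowest 18.19) and 19.41 for *TPT1* (next 18.64, lowest 18.12). These signals were not scaled between arrays. The array of dog 1 had the highest median log2 Cy5 signal over all spots, 8.00, against 7.33 to 7.69 on the other arrays.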

How the results depend on the processing

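The count of probes above background was 31680 with both channels required, 39230 with Cy5 above background on at least 4 of 8 arrays and 43603 with no filter. Of the 25 brightest named genes, 21 to 25 stayed in the list under the planned settings other than leaving out a dog and 24 to 25 without each dog in turn. With probes that share a 12-base word left out 14 stayed, and with probes holding 1 of the 4 common motifs left out 11 stayed. Both settings were chosen after seeing the data. Of the 25 genes with the largest SD, 17 to 23 stayed without each dog in turn and 12 with the MAD in place of the SD. *EMR2* had the largest SD in every setting run other than the MAD, where *CEACAM23* did. Of the 15 with the smallest SD, 0 stayed with the MAD or with no filter and 1 to 15 in the other settings. Normexp and loess lowered the median SD of the named genes to 0.167. The slide test called 0 probes under every setting with all 8 dogs and 0 to 1 without each dog in turn. These were TC76046 without dog 1, *EMR2* without dog 2 and TC66792 without dog 6. The counts of erythroid, interferon-stimulated, cytotoxic and platelet genes highest in dogs 1, 7, 8 and 3 stayed within 1.5 times the reported count in all 48 values computed. Where a dog other than the leading one was left out, this count could not fall, so such values could not weaken the result. Signals near background limit the precision of the dim genes. No paired analysis was possible because only 1 group of dogs was used.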
